A study of Mus musculus with 6 samples.

Results

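The Oogenesin genes (Oog1, Oog2, Oog3 and Oog4) and the Pramel genes (Pramel1, Pramel3, Pramel4, Pramel5, Pramel6 and Pramel7) belong to the PRAME family of leucine-rich-repeat proteins. They were taken by exact gene symbol, which gave 10 members among the 23308 gene symbols of the deposited tables. The symbol rule uses no measured value, but the list was chosen with earlier results of these data known. The YAP-null 4-cell library was set beside the wild-type 4-cell library, YAP-null GV oocytes beside wild-type GV oocytes, and the 4-cell stage beside the GV stage. A GV oocyte is a fully grown oocyte that still has its nucleus, the germinal vesicle. Levels are in FPKM, the number of mapped fragments normalised to transcript length and library size. They are shares of a library and not amounts per oocyte or embryo, so a comparison between libraries also depends on their other RNA.

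PRAME family genes have multiplied into large clusters in the mouse genome and are expressed mainly in germ cells and early embryos. The Oogenesins are named for their transcripts in oocytes, which are stored as the oocyte grows and lost as the embryo takes over from maternal RNA. PRAMEL7 is known from mouse embryonic stem cells and the inner cell mass as a receptor that brings the chromatin protein UHRF1 to a CUL2 ubiquitin ligase, and PRAMEL6 and PRAMEL7 are known to favour the pluripotent state. YAP, the product of Yap1, is a transcriptional coactivator of the Hippo pathway that reaches DNA through TEAD factors.

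The study asked what maternal YAP does for the first transcription of the embryo. Each of 6 libraries was made from mRNA of 60 oocytes or embryos of ICR-background females 21 to 23 days old that had received PMSG and hCG, the hormones used to bring on follicle growth and ovulation, and that were mated where embryos were wanted. There was 1 library of 4-cell embryos labelled YAP-/- with Yap1 deleted, 1 of wild-type 4-cell embryos, 2 of GV oocytes labelled YAP-/- with Yap1 deleted, and 2 of wild-type GV oocytes, with mothers of the same genotype label. The sources used here give neither the promoter of any Cre, nor the cells of the female that lost Yap1, nor the fathers' genotype. Nothing says that the GV libraries of a genotype came from separate females, so p-values measure only the spread between these samples, which may be technical.

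The labels' source field names GV oocytes for the 4-cell samples, against their titles and stage fields. Of 8 markers of the cleavage embryo, 6 were at 1 FPKM or more in both 4-cell libraries (the other two, Tcstv1 and Tcstv3, were listed at 0 in all 6 libraries), and 12 of 12 oocyte markers were at that level in all 4 GV libraries. Yap1 was at 33.3 FPKM in YAP-null embryos, against 89.7 FPKM in wild-type embryos, and at no more than 10.8 FPKM in YAP-null oocytes, against 248 and 154 FPKM in wild-type oocytes. The 4-cell library labelled YAP-/- thus held Yap1 RNA at 37.2% of the wild-type level and 3.20-fold the mean of the YAP-null oocytes, and YAP-null is used here as the labels' name for it. Depth relative to wild-type GV library 1, estimated from the deposited bounds, was 0.796 in the YAP-null and 0.965 in the wild-type 4-cell library and 0.365 to 0.447 in the other 3 GV libraries. Read totals are unknown.

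The members fell into a group held by oocytes and a group expressed in embryos. Oog3 and Oog4 were the leading members in every GV library, with Oog1 and Oog2 below them. Pramel4, Pramel5, Pramel6 and Pramel7 were high in both 4-cell libraries and listed at 0 in every GV library, except Pramel4 at 0.246 FPKM in wild-type GV library 2. Pramel1 and Pramel3 stayed at low levels throughout.

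**Figure D1:**
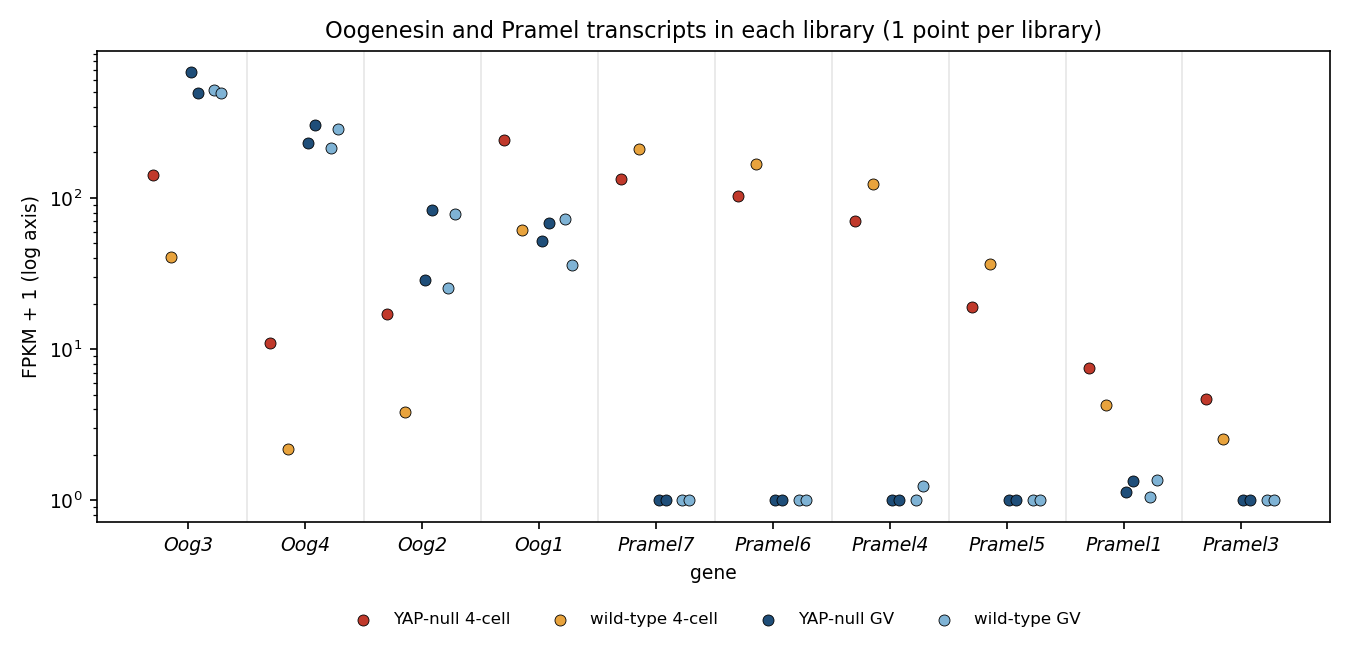
FPKM + 1 on a log axis for the 10 genes, 1 point per library, with the YAP-null 4-cell, wild-type 4-cell, YAP-null GV and wild-type GV libraries from left to right within each gene; a value of 0 is drawn at 1. Oog2, Oog3 and Oog4 are highest in GV oocytes, and Pramel4 to Pramel7 stand at or near 0 there and between 18.0 and 209 FPKM in the 4-cell libraries.

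The promoters are shown for the 4 Pramel genes expressed in embryos, which move together, and for Oog1 and Oog3. Between stages Oog3 was called lower in embryos. Oog1 was not called, and its direction depended on how its copies were counted. Each sequence runs from 250 bases before to 50 bases after the RefSeq transcription start on the gene's own strand, in GRCm38.p6, and all 10 members matched a RefSeq promoter by symbol. The positions are Pramel4 at chr4:144058875-144059174 (+), Pramel5 at chr4:144280417-144280716 (-), Pramel6 at chr2:87506315-87506614 (+), Pramel7 at chr2:87492369-87492668 (-), Oog1 at chr12:87602415-87602714 (+) and Oog3 at chr4:144162602-144162901 (-). Capitals mark GGATTA in Pramel4 and Pramel5, the core bound by OTX and OBOX homeodomain factors, GGAATG in Pramel7, a core bound by TEAD factors, and TATAAA in Oog3, the TATA box.
Pramel4: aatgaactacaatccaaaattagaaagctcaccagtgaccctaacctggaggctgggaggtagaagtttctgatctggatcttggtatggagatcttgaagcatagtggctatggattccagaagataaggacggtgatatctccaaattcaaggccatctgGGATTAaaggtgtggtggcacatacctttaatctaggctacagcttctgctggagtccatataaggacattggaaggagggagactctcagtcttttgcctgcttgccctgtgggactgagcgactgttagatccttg
Pramel5: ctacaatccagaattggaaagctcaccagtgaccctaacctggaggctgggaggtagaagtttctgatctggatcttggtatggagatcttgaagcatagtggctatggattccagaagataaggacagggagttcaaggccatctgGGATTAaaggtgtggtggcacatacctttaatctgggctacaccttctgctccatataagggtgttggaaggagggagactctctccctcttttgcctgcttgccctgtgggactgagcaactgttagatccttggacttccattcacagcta
Pramel6: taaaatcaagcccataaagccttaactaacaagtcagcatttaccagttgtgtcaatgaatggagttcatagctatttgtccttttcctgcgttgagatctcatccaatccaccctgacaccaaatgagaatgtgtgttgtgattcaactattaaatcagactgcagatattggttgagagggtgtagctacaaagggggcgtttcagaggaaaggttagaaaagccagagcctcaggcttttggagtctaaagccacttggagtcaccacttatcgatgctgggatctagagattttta
Pramel7: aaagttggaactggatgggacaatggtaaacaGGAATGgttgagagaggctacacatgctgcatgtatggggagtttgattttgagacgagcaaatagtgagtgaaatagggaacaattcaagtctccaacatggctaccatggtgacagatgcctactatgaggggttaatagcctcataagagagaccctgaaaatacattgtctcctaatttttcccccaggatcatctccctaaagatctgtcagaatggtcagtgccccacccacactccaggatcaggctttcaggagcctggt
Oog1: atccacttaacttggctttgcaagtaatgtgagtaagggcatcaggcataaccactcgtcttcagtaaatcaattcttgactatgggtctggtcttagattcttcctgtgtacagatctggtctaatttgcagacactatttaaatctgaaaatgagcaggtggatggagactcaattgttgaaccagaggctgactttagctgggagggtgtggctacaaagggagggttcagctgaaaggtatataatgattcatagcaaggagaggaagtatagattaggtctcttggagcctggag
Oog3: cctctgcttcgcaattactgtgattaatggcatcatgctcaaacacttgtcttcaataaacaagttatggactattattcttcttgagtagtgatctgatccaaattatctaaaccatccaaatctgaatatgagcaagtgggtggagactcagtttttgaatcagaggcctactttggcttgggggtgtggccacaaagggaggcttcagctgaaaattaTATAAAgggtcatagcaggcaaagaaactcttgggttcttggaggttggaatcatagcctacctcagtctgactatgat

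The Pramel4 and Pramel5 promoters were 95.4% identical over aligned bases, while those of Pramel6 and Pramel7, neighbours on chromosome 2, were 60.4% identical. The promoters of Oog1 to Oog4 were 75.0% to 84.4% identical to one another. Motifs were searched on both strands, and none of those marked overlapped another. GGAATG or its reverse complement lay in 1 of 10 members, Pramel7, with its first base 218 bases before the start, and in 14.7% of 32851 RefSeq mouse promoters of the same length. TATAAA lay in Oog2 and Oog3, 30 and 29 bases before the start, and in 13.6% of all promoters. GGATTA lay in Pramel4 and Pramel5, 88 and 103 bases before the start, and in 7.06% of all promoters. AGGTCA, a nuclear receptor site, lay in 0 of the 10 members and in 16.3% of all promoters, and the E-box CANNTG lay in 10 of 10 and in 72.3%. A match describes letters in this window and not a bound site.

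In GV oocytes the comparison asked whether loss of YAP changed the store of these transcripts, and no call was made on the members that could be tested. Of the 10 members, 4 (Oog1 to Oog4) passed the filter of a mean of at least 1 FPKM. With limma on log2(FPKM + 1) and a Benjamini-Hochberg adjusted p of 0.05, 0 of the 4 were called, as were 0% of all 10462 genes tested. Without adjustment 22 genes, 0.21%, had a p under 0.05, and 0 of the 4 members were among them. Yap1 itself, with a log2 difference of -4.10 ± 0.39 (SE), had an adjusted p of 1.0 in this limma fit with Benjamini-Hochberg adjustment, so the absence of a call does not show that the members were alike. With 2 libraries on each side, the smallest p of an exact permutation test is 0.333.

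Oog3, the most abundant member in oocytes, was at 678 and 491 FPKM in YAP-null GV libraries 1 and 2 and at 518 and 493 FPKM in wild-type GV libraries 1 and 2. The wild-type values lie between the YAP-null ones. Its means were 585 ± 133 FPKM in YAP-null oocytes, against 506 ± 17.3 FPKM in wild-type oocytes (SD, n = 2 each), and limma gave a log2 difference of 0.19 ± 0.38 (SE, Benjamini-Hochberg adjusted p = 1.0).

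Oog4 was at 230 and 304 FPKM in YAP-null oocytes, against 214 and 285 FPKM in wild-type oocytes, so the groups overlap. In both genotypes library 2 was higher, by 1.32-fold in YAP-null and 1.33-fold in wild-type oocytes, more than the genotypes differed. The log2 difference between genotypes was 0.10 ± 0.38 (SE, limma with Benjamini-Hochberg adjusted p = 1.0).

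Oog2 was at 27.6 and 82.6 FPKM in YAP-null oocytes, against 24.3 and 77.1 FPKM in wild-type oocytes, with wide overlap. Library 2 held 2.99-fold as much as library 1 in YAP-null and 3.18-fold as much in wild-type oocytes, so the spread between libraries of a genotype was far above the genotype difference of 0.14 ± 0.79 on the log2 scale (SE, limma with Benjamini-Hochberg adjusted p = 1.0). Oog1 was at 51.2 and 67.5 FPKM in YAP-null oocytes, against 71.6 and 35.0 FPKM in wild-type oocytes. Its wild-type values lie on either side of the YAP-null ones, with a log2 difference of 0.23 ± 0.47 (SE, limma with Benjamini-Hochberg adjusted p = 1.0).

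For all 4 Oogenesins the genotypes overlapped in GV oocytes, while 10.8% of the genes tested had groups that did not. The order of the mean levels was Oog3, then Oog4, then Oog1 and Oog2, whose libraries overlapped each other. Among the members under the filter, Pramel1 was at 0.144 and 0.339 FPKM in YAP-null oocytes, against 0.0452 and 0.362 FPKM in wild-type oocytes. Pramel3, Pramel5, Pramel6 and Pramel7 were listed at 0 in all 4 GV libraries.

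At the 4-cell stage the comparison asked which transcripts differ in embryos of YAP-null mothers, and the Oogenesins and the embryonic Pramel genes lay on opposite sides. All 10 members passed the filter of a mean of at least 1 FPKM over both libraries. By a size rule of at least 2-fold on the log2(FPKM + 1) scale, 4 members (Oog1 to Oog4) were higher in the YAP-null library and 0 were lower, against 17.7% and 9.97% of the 10854 genes measured, 27.7% in either direction. The members' median log2 difference was 0.83, against 0.05 over all genes. With 1 library a genotype there is no replicate check and no test, and more transcript per embryo cannot be told apart from more embryos in the pool that hold it.

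Oog4 was at 9.98 FPKM in YAP-null embryos, against 1.18 FPKM in wild-type embryos, 8.46-fold higher. Oog2 was at 16.0 FPKM in YAP-null embryos, against 2.83 FPKM in wild-type embryos, 5.64-fold higher. Of the Oogenesins these were lowest in wild-type embryos, and the pseudocount of 1 FPKM brings their log2 differences down to 2.33 for Oog4 and 2.15 for Oog2.

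Oog1 was at 242 FPKM in YAP-null embryos, against 60.7 FPKM in wild-type embryos, 3.98-fold higher. Oog3 was at 142 FPKM in YAP-null embryos, against 39.5 FPKM in wild-type embryos, 3.59-fold higher. Their log2 differences were 1.98 and 1.82, and over all genes 4.84% and 6.07% had a larger difference in that direction, against 3.63% for Oog2 and 2.75% for Oog4. The Oogenesins thus lie within the upper tail of the differences between these libraries, not beyond it.

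Pramel7 was at 132 FPKM in YAP-null embryos, against 209 FPKM in wild-type embryos, 63.3% of the wild-type level. Its chromosome 2 neighbour Pramel6 was at 102 FPKM in YAP-null embryos, against 166 FPKM in wild-type embryos, 61.4%. Both were lower in the YAP-null library by less than 2-fold, and 18.6% and 17.2% of all genes were lower still.

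Pramel4 was at 69.4 FPKM in YAP-null embryos, against 124 FPKM in wild-type embryos, 56.1% of the wild-type level. Its near copy Pramel5 was at 18.0 FPKM in YAP-null embryos, against 35.7 FPKM in wild-type embryos, 50.5%. The log2 differences were -0.82 for Pramel4 and -0.95 for Pramel5, just inside the 2-fold bound, and -0.70 for Pramel6 and -0.65 for Pramel7. Pramel4 and Pramel5 passed the bound, at -1.03 and -1.15, when libraries were scaled by their median ratio.

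The proportions among the 4 embryonic Pramel genes were close in both libraries. Pramel6 stood at 77.1% of Pramel7 in the YAP-null and 79.6% in the wild-type 4-cell library. Pramel4 stood at 52.5% of Pramel7 in the YAP-null library and 59.2% in the wild-type one, and Pramel5 at 13.6% in the YAP-null library and 17.1% in the wild-type one. The order Pramel7, Pramel6, Pramel4, Pramel5 was the same in both.

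Pramel1, a member also known from testis, was at 6.49 FPKM in YAP-null embryos, against 3.30 FPKM in wild-type embryos, 1.97-fold higher. Pramel3, the only X-linked member, was at 3.67 FPKM in YAP-null embryos, against 1.57 FPKM in wild-type embryos, 2.34-fold higher. Their log2 differences of 0.80 and 0.86 were inside the 2-fold bound. The pseudocount weighs on values this low, and Pramel3 passed the bound, at 1.18, with a pseudocount of 0.1 FPKM. These low Pramel members sat on the Oogenesin side of the comparison and not with Pramel4 to Pramel7.

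**Figure D2:**
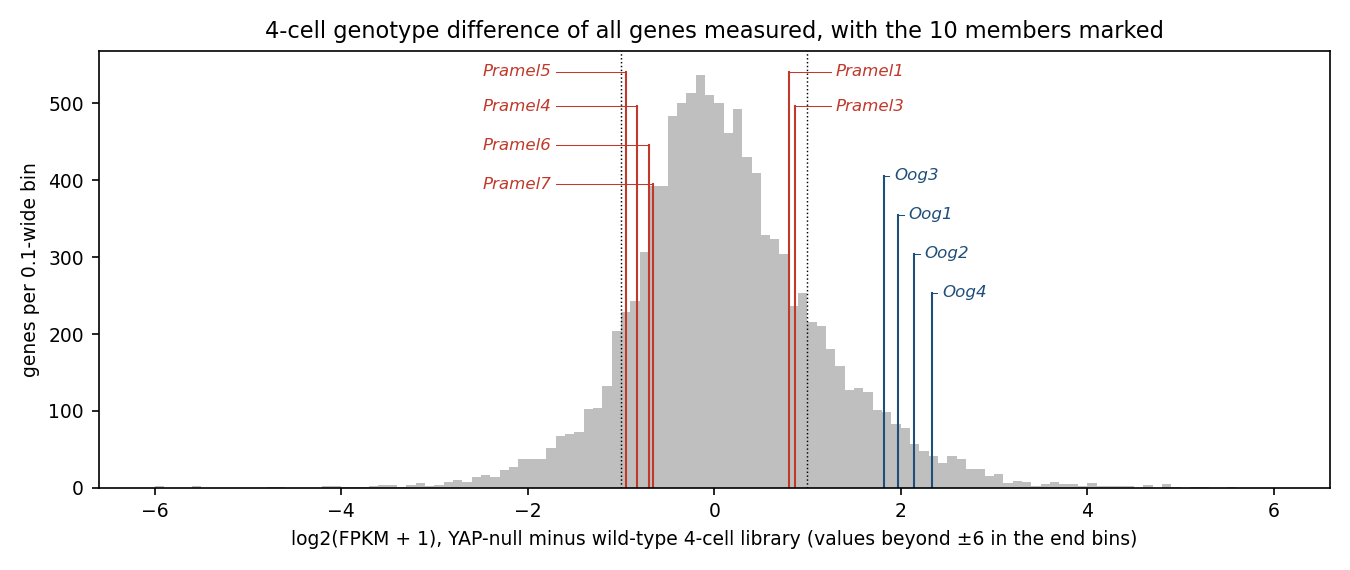
Histogram of the log2(FPKM + 1) difference, YAP-null minus wild-type 4-cell library, over 10854 genes, with a line for each member and dotted lines at the 2-fold bounds; 1 library per genotype. The 4 Oogenesins stand between 1.82 and 2.33, Pramel1 and Pramel3 at 0.80 and 0.86, and Pramel4 to Pramel7 between -0.95 and -0.65.

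Oocyte markers moved the same way as the Oogenesins in this comparison. Of 12 oocyte markers, 11 were at least 2-fold higher in the YAP-null 4-cell library, with a median log2 difference of 3.10. Without Dppa3, the marker that was not, they summed to 929 FPKM in YAP-null embryos, against 117 FPKM in wild-type embryos, and to between 5758 and 10880 FPKM in the 4 GV libraries. The 8 cleavage embryo markers summed to 110 FPKM in YAP-null embryos, against 172 FPKM in wild-type embryos, and their direction was mixed. Of the 6 above the filter, 3 were lower in the YAP-null library, Nanog and Tead4 by at least 2-fold. The other 3, Zscan4c, Zscan4d and Zfp352, were higher by less than 2-fold, at 9.61, 12.9 and 17.1 FPKM in YAP-null embryos, against 5.98, 6.54 and 10.95 FPKM in wild-type embryos. The median log2 difference of the 6 was -0.17. Their part in the differences of the Oogenesin and Pramel genes was not tested.

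Markers of other cells summed to less than the members in every library. Blood markers summed to 25.9 FPKM in YAP-null embryos, against 93.5 FPKM in wild-type embryos. Granulosa and cumulus markers summed to 2.60 FPKM in YAP-null embryos, against 1.82 FPKM in wild-type embryos. In the GV libraries the latter summed to 32.0 and 29.8 FPKM in YAP-null oocytes, against 33.4 and 37.9 FPKM in wild-type oocytes. Cyp19a1 was at 9.51 to 13.6 FPKM and Inha at 6.12 to 15.6 FPKM there. Ptx3 and Tnfaip6 were listed at 0 in all 6 libraries. Sperm markers summed to 5.09 FPKM in YAP-null embryos, against 0.114 FPKM in wild-type embryos, with Prm1, Tnp1 and Tnp2 listed at 0. All of the sum in YAP-null embryos was Prm2, which was at 2.28 to 10.2 FPKM in the GV libraries. Their part was not tested either.

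Between stages, Oog2, Oog3 and Oog4 were lower in 4-cell embryos than in GV oocytes, Pramel1 and Pramel4 to Pramel7 had their higher values in embryos, and Oog1 did not pass the test. The fit was limma on all 6 libraries with stage and genotype as terms, in which the 4-cell stage has 1 library of each genotype. It called 56% of 11451 genes at a Benjamini-Hochberg adjusted p of 0.05, 28.2% higher and 27.8% lower at the 4-cell stage, so a call is common. Of the 10 members 9 passed the filter and Pramel3, with a mean of 0.872 FPKM over the 6 libraries, did not. Pramel1 and Pramel4 to Pramel7 passed it only through the 4-cell libraries, where they are high, and had to differ, so their values are given as a description, with no p.

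Oog4 fell furthest of the Oogenesins. Its level in YAP-null embryos was 3.74% of the mean of YAP-null GV oocytes, and in wild-type embryos it was 0.473% of the mean of wild-type GV oocytes. The stage difference was -5.71 ± 0.55 on the log2 scale (SE, limma with Benjamini-Hochberg adjusted p = 0.000523). Both 4-cell libraries were below all 4 GV libraries, as they were for 35.2% of genes.

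Oog3 was at 24.2% of its GV mean in YAP-null and at 7.81% in wild-type embryos. The stage difference was -2.83 ± 0.49 (SE, limma with Benjamini-Hochberg adjusted p = 0.00381), and the adjusted p was 0.0509 without the wild-type 4-cell library. Oog2 was at 29.0% of its GV mean in YAP-null and 5.58% in wild-type embryos, with a stage difference of -2.53 ± 0.74 (SE, limma with Benjamini-Hochberg adjusted p = 0.0261). Without the YAP-null 4-cell library the adjusted p of Oog2 was 0.078, and without the wild-type one it was 0.351; over all settings run it spanned 0.00329 to 0.351 for Oog2 and 0.00223 to 0.0509 for Oog3. For Oog2 and Oog3, too, both 4-cell libraries lay below all 4 GV libraries.

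Oog1, present in GV oocytes like the other Oogenesins, was not called between stages, and its direction depended on how near-identical copies were counted. It was at 4.07-fold its GV mean in YAP-null and at 1.14-fold in wild-type embryos. The stage difference was 1.15 ± 0.53 on the log2 scale (SE, limma with Benjamini-Hochberg adjusted p = 0.109), and the wild-type 4-cell value lies inside the range of the GV libraries. The adjusted p was 0.048 without wild-type GV library 1 and spanned 0.048 to 0.722 over the settings run. Summed with its copies, Oog1 turned to -0.86, and the copy Gm10436 alone was lower at the 4-cell stage, like the other Oogenesins, at -2.04 on the log2 scale (limma with Benjamini-Hochberg adjusted p = 0.0239).

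Within each genotype the Oogenesins had the smaller drop, or the larger gain, in the YAP-null samples. From GV oocytes to the 4-cell library the log2 difference of Oog4 was -4.60 in YAP-null and -6.83 in wild-type samples. It was -2.02 in YAP-null and -3.64 in wild-type samples for Oog3, and -1.53 in YAP-null and -3.54 in wild-type samples for Oog2. For Oog1 it was 2.02 in YAP-null and 0.27 in wild-type samples. Each rests on 1 embryo library, and the difference between the genotypes' stage differences was not tested.

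Pramel7, Pramel6 and Pramel5 were listed at 0 in all 4 GV libraries and at 132, 102 and 18.0 FPKM in YAP-null embryos, against 209, 166 and 35.7 FPKM in wild-type embryos. No fold can be given against 0, and their log2 differences are set by the pseudocount. That of Pramel7 was 7.39 in the fit, and it ran from 5.10 to 10.70 over the settings tried. Pramel4, at 0.246 FPKM in 1 GV library and listed at 0 in the other 3, had a stage difference of 6.47, and Pramel5 and Pramel6 had 4.72 and 7.04. In all 4 the 4-cell libraries stood far above the GV libraries in both genotypes.

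Pramel1 was at 3.30 to 6.49 FPKM in the 4-cell libraries, against 0.0452 to 0.362 FPKM in the 4 GV libraries. Its stage difference was 2.22 on the log2 scale. Both 4-cell libraries were above all GV libraries for Pramel1, Pramel3, Pramel4, Pramel5, Pramel6 and Pramel7, as for 35.1% of genes tested. Nothing is read from that, because Pramel3 was not among the genes tested. The others passed the filter only through the 4-cell libraries. Within genotype the gain of Pramel4 to Pramel7 was smaller in YAP-null samples, 7.06 against 7.71 in wild-type samples for Pramel7 and 4.25 against 5.20 for Pramel5, the reverse of Pramel1, with 2.60 in YAP-null and 1.85 in wild-type samples. Where the GV values are 0, these gains restate the 4-cell levels.

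**Figure D3:**
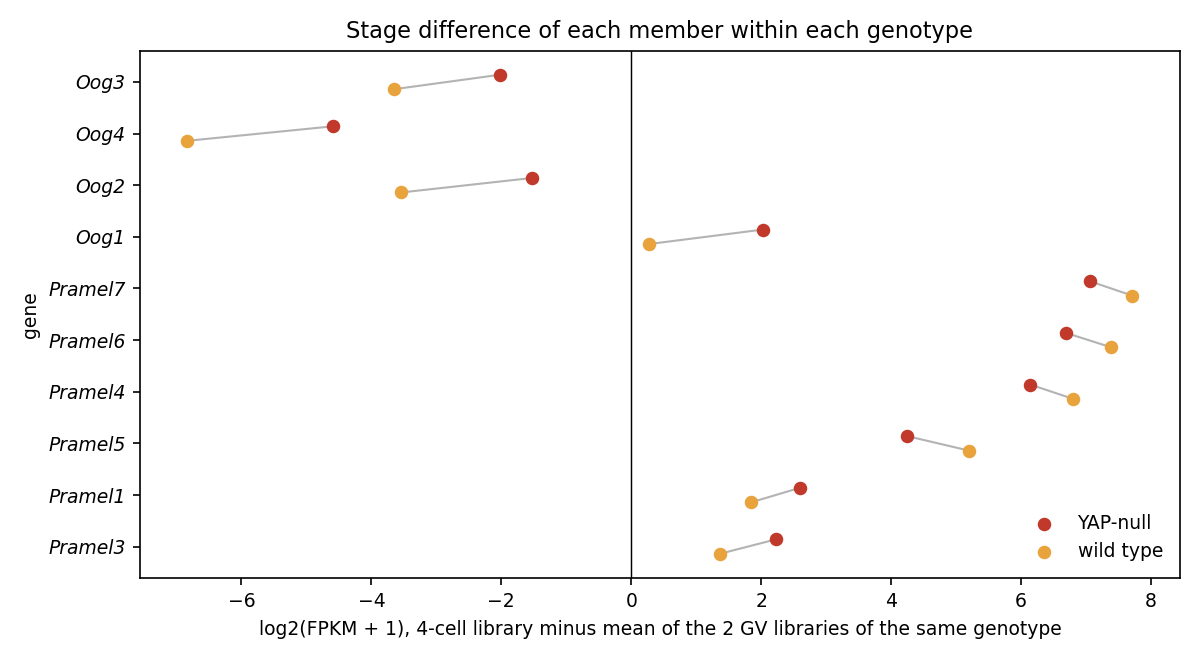
Log2(FPKM + 1) of the 4-cell library minus the mean of the GV libraries of the same genotype, 1 point per genotype and gene, joined by a line. The YAP-null point lies to the right of the wild-type point for the 4 Oogenesins, Pramel1 and Pramel3, and to the left for Pramel4 to Pramel7.

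The make-up of the members' RNA differed between the 4-cell libraries more than its sum in FPKM. The 10 members summed to 741 FPKM in YAP-null embryos, against 643 FPKM in wild-type embryos. The Oogenesins were 55.2% of that sum in the YAP-null library and 16.2% in the wild-type one, while Pramel4 to Pramel7 were 43.4% in the YAP-null library and 83.0% in the wild-type one. As deposited, without copies, the most abundant member was Oog1 in the YAP-null library, at 32.6% of the sum, and Pramel7 in the wild-type one, at 32.5%.

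In GV oocytes the members summed to 988 and 945 FPKM in YAP-null oocytes, against 828 and 891 FPKM in wild-type oocytes. At least 99.9% of each sum was Oogenesin RNA. Oog3 made up 68.7% and 51.9% in YAP-null and 62.5% and 55.4% in wild-type libraries, followed by Oog4 in each of them.

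**Figure D4:**
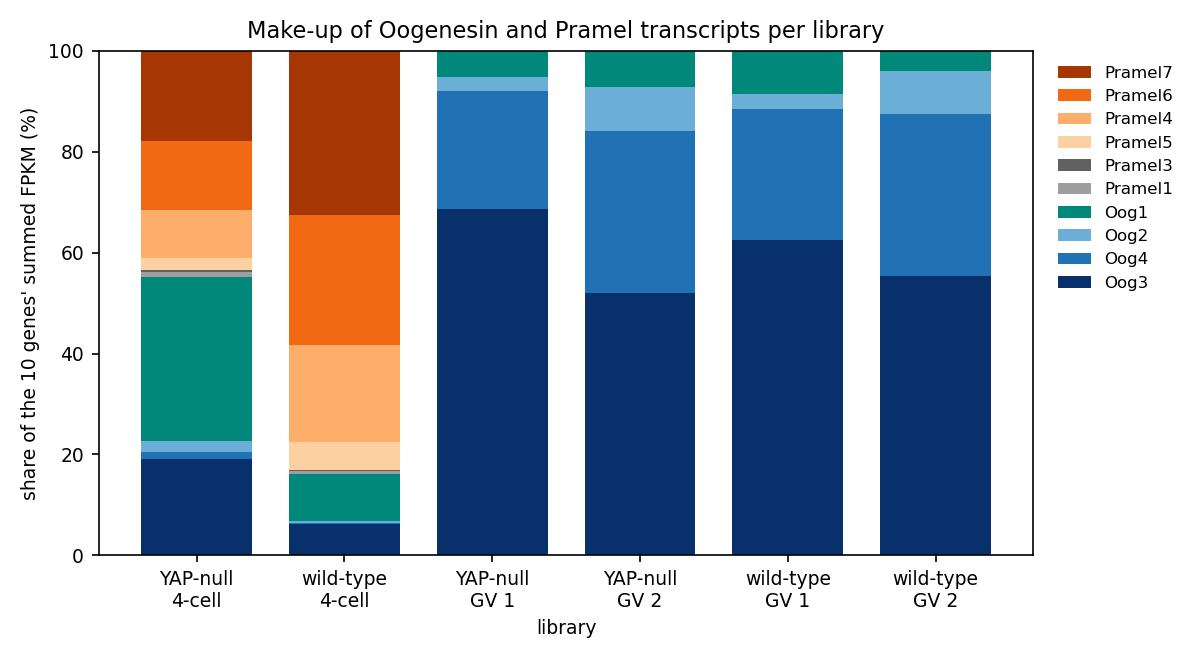
Share of each gene in the summed FPKM of the 10 members, in percent, 1 bar per library. The Oogenesins (blue and green) fill the GV bars and make up 55.2% of the YAP-null and 16.2% of the wild-type 4-cell bar, the rest of which is mostly Pramel4 to Pramel7 (orange and brown).

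Oog1 is listed at 2 loci on chromosome 12 in the deposited tables (mm9), at 88943615-88949795 and 89192924-89199120, and its values above are their sum. In the 4-cell stage the first locus was at 145 FPKM in YAP-null embryos, against 35.6 FPKM in wild-type embryos, and the second at 96.9 FPKM in YAP-null embryos, against 25.2 FPKM in wild-type embryos. The deposited status of the second locus is LOWDATA in all 6 libraries. The widest of its bounds, in wild-type GV library 2, lay 88.2% of their midpoint to either side. With the higher locus alone the stage difference of Oog1 was 0.70 (limma with Benjamini-Hochberg adjusted p = 0.285). The genotype difference was 4.08-fold at the first and 3.85-fold at the second. The second locus gave 40.1% and 41.4% of Oog1 in the YAP-null and wild-type 4-cell libraries and 3.84% to 31.5% in the GV libraries.

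Several members have near-identical copies, and the sources used here do not say how the authors counted reads that match several places. In the GENCODE mouse annotation, the share of a member's 50-base stretches found also in another gene was 89.0% for Oog1, 87.4% for Pramel4, 81.8% for Pramel3, 33.4% for Oog2, 25.9% for Pramel5 and 19.7% for Oog3. It was 1.43% for Pramel7, 0.707% for Oog4, and 0 for Pramel1 and Pramel6. The levels of Oog1, Pramel3 and Pramel4 are therefore the least certain. Oog4, Pramel1, Pramel6 and Pramel7 shared few or no exact stretches with annotated transcripts of other genes. Inexact matches of these stretches and copies outside the annotation were not searched.

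Members were also summed with the genes of the deposited tables that share at least 25% of their stretches, a choice made after seeing the data. Oog1 with its copies Gm2042 and Gm10436 came to 517 FPKM in YAP-null embryos, against 119 FPKM in wild-type embryos, 4.34-fold higher. In GV oocytes that sum was 532 and 398 FPKM in YAP-null libraries, against 492 and 394 FPKM in wild-type libraries, so its stage difference was -0.86 (limma with Benjamini-Hochberg adjusted p = 0.236), the reverse sign of Oog1 alone. Gm10436, whose open reading frame is 99.2% identical to that of Oog1, was at 182 FPKM in YAP-null embryos, against 35.2 FPKM in wild-type embryos, and at 289 to 406 FPKM in GV oocytes.

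Oog2 with Gm13084, 98.5% identical in its reading frame, came to 51.7 FPKM in YAP-null embryos, against 7.90 FPKM in wild-type embryos, 6.55-fold higher. Pramel4 with Gm13102 came to 125 FPKM in YAP-null embryos, against 241 FPKM in wild-type embryos, 51.7% of the wild-type level. Pramel3 with the 3 copies analysed here (Gm5128, which shares 55.5% of its stretches, was not) came to 15.8 FPKM in YAP-null embryos, against 7.25 FPKM in wild-type embryos, 2.18-fold higher. The side on which each member lay at the 4-cell stage was the same with its copies as without.

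Open reading frames were compared as well. Oog1 to Oog4 were 74.6% to 81.5% identical to one another, and Pramel4 and Pramel5 93.7%. Pramel6 and Pramel7, with nearly the same profile over the libraries, were 60.8% identical, and the closest relative of Pramel7 among the family genes compared was Gm13128, at 81.2%.

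Of the members, 6 lie in a cluster on chromosome 4 (mm9 142984344-143998367, 1014 kb). There 21 of the 27 entries listed matched the PRAME family by RefSeq symbol or synonym. Pramel4, Oog3, Oog2 and Pramel5 lie close to each other there, with C87977 between Oog2 and Pramel5. Pramel4, at 143649029-143659221, was an embryo gene, at no more than 0.246 FPKM in oocytes. The next matched family gene, Oog3, at 143747459-143752554, was the most abundant member in oocytes. Pramel5, at 143860536-143870369, was again an embryo gene. Pramel7 and Pramel6 lie 16.0 kb apart on chromosome 2, at 87329245-87332575 and 87348615-87351022, and Pramel3 lies on chromosome X.

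**Figure D5:**
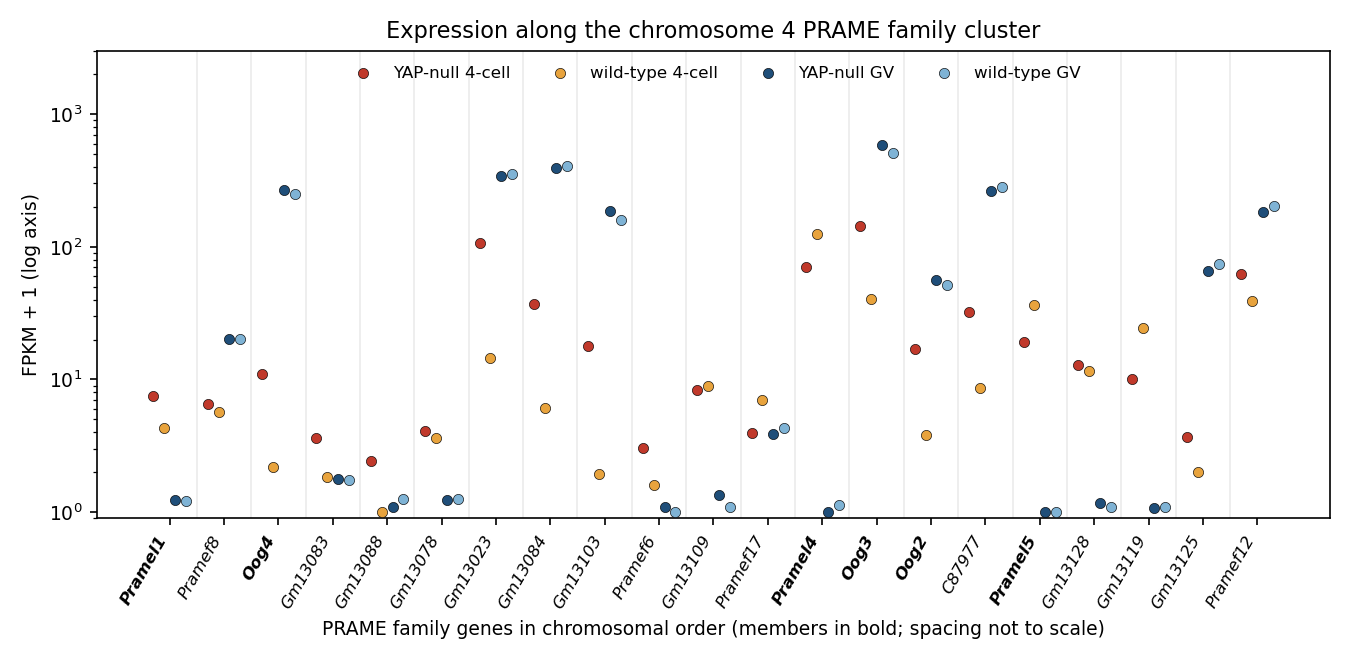
FPKM + 1 on a log axis for the 21 matched PRAME family genes of the chromosome 4 cluster in chromosomal order, not to scale. Each gene has 1 point per 4-cell library and the mean of the GV libraries of each genotype. Oocyte genes such as Oog3 and Oog2 lie among embryo genes such as Pramel4 and Pramel5.

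Matching by RefSeq symbol or synonym gave 26 other PRAME family genes, and they include oocyte genes and embryo genes. Some copies summed above, such as Gm2042 and Gm13102, did not match and are not counted among them. Gm2042 was at 92.9 FPKM in YAP-null embryos, against 23.1 FPKM in wild-type embryos. Gm13102 was at 55.3 FPKM in YAP-null embryos, against 117 FPKM in wild-type embryos. In GV oocytes 14 of the 26 passed the filter and 0 were called. At the 4-cell stage 24 passed, 10 were at least 2-fold higher in the YAP-null library, where 17.7% of all genes were, and 1, Gm13119, was lower, where 9.97% of all genes were. Their median log2 difference was 0.90. Between stages 22 passed, and 11 were called lower at the 4-cell stage, where 27.8% of all genes were. Another 7 were called higher, where 28.2% of all genes were. All of those 7 but Gm3139 averaged under 1 FPKM in GV oocytes, passed the filter only through the 4-cell libraries and had to be higher, so nothing is read from that count.

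The abundant oocyte relatives had 4-cell values like those of the Oogenesins. C87414 was at 138 FPKM in YAP-null embryos, against 7.73 FPKM in wild-type embryos, 17.9-fold higher, and at 228 to 381 FPKM in GV oocytes. Gm13023 was at 106 FPKM in YAP-null embryos, against 13.6 FPKM in wild-type embryos, and C87499 was at 47.7 FPKM in YAP-null embryos, against 4.63 FPKM in wild-type embryos. C87977, Gm13103 and Gm3259 were at least 2-fold higher in the YAP-null library too, at 31.4, 16.9 and 29.9 FPKM in YAP-null embryos, against 7.68, 0.953 and 1.32 FPKM in wild-type embryos.

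Pramef12, Gm13125, Gm3139 and B020004J07Rik did not meet the 2-fold rule. Pramef12 was at 61.2 FPKM in YAP-null embryos, against 38.4 FPKM in wild-type embryos, 1.60-fold higher. Gm13125 was 2.66-fold higher in YAP-null embryos in FPKM, at 2.67 FPKM there, and its log2(FPKM + 1) difference of 0.87 lay inside the bound, as did those of Pramel1 and Pramel3. Gm3139 was the abundant relative expressed in embryos, at 234 FPKM in YAP-null embryos, against 377 FPKM in wild-type embryos, and at 1.38 to 2.93 FPKM in GV oocytes. B020004J07Rik was at 35.7 FPKM in YAP-null embryos, against 43.0 FPKM in wild-type embryos, and at 0.303 to 1.08 FPKM in GV oocytes. Like Pramel4 to Pramel7, Gm3139 and B020004J07Rik were lower in the YAP-null library by less than 2-fold. Not every relative kept to these sides. A430089I19Rik, listed at 0 in GV oocytes, was at 13.9 FPKM in YAP-null embryos, against 4.99 FPKM in wild-type embryos. The oocyte relative D5Ertd577e was lower, at 13.15 FPKM in YAP-null embryos, against 20.6 FPKM in wild-type embryos.

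The partners through which PRAMEL7 is known to act did not move as a block. Of 14 genes for the CUL2 ligase, its receptors, UHRF1 and DNMT1, 13 passed the filter in GV oocytes and 0 were called. At the 4-cell stage all 14 passed, 0 were at least 2-fold lower in the YAP-null library (9.97% of all genes) and 1 was at least 2-fold higher (17.7% of all genes), Klhdc3, which encodes a CUL2 receptor, at 37.9 FPKM in YAP-null embryos, against 9.76 FPKM in wild-type embryos. Cul2, the ligase scaffold, was at 18.8 FPKM in YAP-null embryos, against 21.4 FPKM in wild-type embryos. Its stage difference was 1.19 ± 0.32 on the log2 scale (SE, limma with Benjamini-Hochberg adjusted p = 0.019).

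Between stages 7 of these 14 genes were called higher at the 4-cell stage (Cul2, Tceb2, Vhl, Zer1, Zyg11b, Fem1c and Appbp2), where 28.2% of all genes were. Another 3 were called lower (Klhdc3, Uhrf1 and Dnmt1), where 27.8% of all genes were. Zer1 averaged under 1 FPKM in GV oocytes and passed the filter only through the 4-cell libraries. It had to be higher, so nothing is read from its call. Uhrf1, which encodes the protein that PRAMEL7 is known to target, was at 20.3 FPKM in YAP-null embryos, against 11.7 FPKM in wild-type embryos. Its stage difference was -4.20 (limma with Benjamini-Hochberg adjusted p = 0.000305). Dnmt1, the maintenance DNA methyltransferase that UHRF1 brings to replicating DNA, was at 38.4 FPKM in YAP-null embryos, against 23.9 FPKM in wild-type embryos, with a stage difference of -3.85 (limma with Benjamini-Hochberg adjusted p = 0.0112).

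Genes with the profile most like a member's were found by the root mean square distance between log2(FPKM + 1) values centred over the 6 libraries, among 11442 genes. Spic, a transcription factor gene, was nearest to Pramel7, at a distance of 0.044, with 143 FPKM in YAP-null embryos, against 204 FPKM in wild-type embryos, and listed at 0 in GV oocytes. Stmn3 and Psat1 followed at 0.155 and 0.203, and Pramel6 itself stood at 0.165 from Pramel7. Pramel7, Pramel6, Spic and Stmn3 were all listed at 0 in GV oocytes, so the distances among them rest on the 4-cell values alone. For Oog3 the nearest were Ada, 1110020A21Rik and Clvs2, at 0.115, 0.115 and 0.124. For Oog4 they were Fbxw26, Nlrp4b and Oas1c, at 0.263, 0.275 and 0.298, and for Oog1 Irf2bp1, Rmdn2 and Suv420h2, at 0.174, 0.252 and 0.273. Oog1 was nearer to Pramel1, at 0.736, than to Oog3, at 1.91. That holds for Oog1 as deposited and not for its sum with copies, whose stage difference has the other sign.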

How the data were processed

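The authors deposited a table per library with an FPKM value and a lower and an upper bound per gene, 23813 entries each. CASAVA 1.8, TopHat and the mm9 build are named in the submitters' processing notes. The sources used here do not give the quantification tool, its annotation, its use of strand or its handling of reads with several matches. The FPKM values were used as deposited: 1 failed entry (Nolc1) was left out, 260 symbols listed at several loci were summed, and 23308 symbols remained. Of the members' values, 14 lie outside their own deposited bounds, so no bounds are printed. Over the 33 member values of 10 FPKM or more, the bounds' half-width was 2.76% to 20.6% of their midpoint. They cover counting and assignment error in 1 library only.

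Values were compared as log2(FPKM + 1) for genes that averaged 1 FPKM or more in the libraries of a comparison. limma 3.58.1 (limma-trend, R 4.3.3), two-sided, with Benjamini-Hochberg adjustment over all genes tested, was applied to the 4 GV libraries without a replicate term and to all 6 libraries with stage and genotype as terms. The script was tested on simulated data with planted log2 differences of 1, 2, 4 and 6, in 50 genes each. The GV fit recovered 0%, 0%, 28% and 62% of them, so it misses most differences of moderate size. The stage fit recovered 14%, 34%, 50% and 76%, with 8 false calls. The 4-cell libraries, 1 per genotype, were compared by a 2-fold size rule. Alternatives were other pseudocounts, filters, scalings, loci, copies and left-out libraries. Members and gene lists were chosen with earlier results of these data known. Named genes were the members, Yap1 and up to 12 other PRAME family genes with the highest values of at least 10 FPKM. Also named were the CUL2 and UHRF1 genes that passed a test or rule, and the 3 nearest profiles of the 4 most abundant members. Gm2042, Gm13102, Gm5128 and Gm13128 were named as sequence copies and Gm13119 as the only matched relative lower by the 2-fold rule. A430089I19Rik and D5Ertd577e were named as relatives on the other side. Promoters came from RefSeq (GRCm38.p6), motifs and identities from Python 3.11.15 with Biopython 1.88, and transcripts from GENCODE on GRCm38. Coordinates of the deposited tables are mm9, counted from 1.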

Additional observations from a re-analysis of the deposited data

How the results depend on the processing

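Of 296 member values recomputed under other settings, 275 kept their direction and their side of the threshold. Some of these values could not change. The Oog3 difference between the embryo libraries stayed at 1.82 under other filters, with the highest locus and when summed with copies. The count also holds stage differences of Pramel1 and the embryonic Pramel genes, which had to differ. It is therefore not a measure of how stable the members are. In GV oocytes 0 genes were called by limma, 2 to 7 with a library left out and 2 with a replicate block, and 0 of them were members in each case. The replicate numbers are shared labels only, though deviations of same-numbered libraries from their group means correlated at 0.849 over 10462 genes. The GV differences of the members changed sign: rescaled to the same sum, Oog2 gave -0.007 and Oog4 -0.055, and summed with its copy Oog2 gave -0.065. In YAP-null GV library 1 a single gene made up 19.1% of the summed FPKM, which weighs on that rescaling. With a library left out, Oog1 ran from -0.28 to 0.73, Oog2 from -0.68 to 0.95, Oog3 from -0.043 to 0.42 and Oog4 from -0.11 to 0.30, all with an adjusted p of at least 0.999.

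At the 4-cell stage 3007 genes met the 2-fold rule, 1275 with a pseudocount of 5 FPKM, 1723 with a mean of at least 5 FPKM and 696 with a 4-fold rule, under which 2 members (Oog2 and Oog4) remained higher. Members lower numbered 0, and 2 with median-ratio scaling. Of the genes meeting the rule 64.0% were higher in the YAP-null library, 75.6% with equal sums, 50.2% with median-ratio scaling and 53.1% with quantile normalization, which put the median of all genes at 0.23, -0.14 and -0.08 in place of 0.05. Over the settings run the members kept their sign: the Oogenesins ran from 1.28 to 2.98, Pramel4 to Pramel7 from -1.15 to -0.46, Pramel1 from 0.47 to 0.96 and Pramel3 from 0.40 to 1.18. Between stages 6408 genes were called, and 2965 to 6332 with a library left out: 4215 without the YAP-null and 2965 without the wild-type 4-cell library, in which the lone 4-cell library is assumed to vary like the GV libraries. Members lower numbered 3, and 1 to 3 with a library left out. Oog1 reversed to -0.86 when summed with its copies. The causes were not tested. Depth is known only relative to 1 library, and values under about 1 FPKM are the least precise.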
